A study of Mus musculus with 5 samples.

Results

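The genes described here encode 4 groups of guidance molecules and receptors: the Eph receptors, the ephrins, the semaphorins, and the plexins with the neuropilins. Members were the protein-coding genes of GENCODE M21 (mm10) whose symbols are Epha or Ephb plus a number, Efna or Efnb plus a number, Sema plus a number and a letter, Plxn plus a letter, and Nrp1 and Nrp2. The rule gave 53 of 21951 coding genes, and 48 of the 8038 regions that were deposited overlap these genes or lie within 10 kb of them. CUT&Tag, in which an antibody directs a transposase to tag nearby DNA, was performed on wild-type retinas from E16.5 mouse embryos, 4 retinas per pool, after dissociation with papain. Libraries were made with rabbit anti-Pou4f1 (n = 2) or with rabbit IgG as the negative control (n = 2), and 1 library with rabbit anti-H3K9AC was not analysed here. The whole dissociated retina was used, so the signal comes from every cell type that the antibody reaches, and in such a mixture more bound cells and more binding per cell cannot be told apart.

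Pou4f1 is a POU-homeodomain transcription factor of retinal ganglion cells (RGCs), the neurons whose axons form the optic nerve. Eph receptors are tyrosine kinases that bind ephrins on neighbouring cells. The ephrin-A ligands are held in the membrane by a lipid anchor and the ephrin-B ligands span it, and both can also signal back into the cell that carries them. In the visual system, graded EphA and ephrin-A proteins order RGC axons in their targets by temporal-nasal position in the retina. EphB and ephrin-B proteins do so by dorsal-ventral position in the retina, and Ephb1 on RGC axons meets Efnb2 at the optic chiasm. Semaphorins are mostly repulsive cues that signal through plexins, and the secreted members of the family usually need a neuropilin as co-receptor. Transmembrane semaphorins and A-type plexins also set the layers in which neurites of the inner retina branch.

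Of the 48 regions, 7 hold a POU motif, searched on both strands as ATNAATAATT or ATNAATTATT, where N is any base. It is in 11.1% of all regions. The 120 bases around each are given on the strand of the motif, with the motif in capitals. They are printed because the 7 include 5 of the 10 member regions with the highest mean Pou4f1 signal. Of those 10, 7 have their midpoint more than 1 kb from any annotated start, where 26.1% of all regions hold the motif. The share among the strongest of all regions was not computed. Distances in kb are from the start of the transcript with the longest coding sequence to the midpoint of the region. Sequence was read from GRCm38.p6, the assembly behind mm10. In Efna3 another copy of the motif overlaps the printed site on the opposite strand.
Efna5, chr17:62844615-62844734, plus strand: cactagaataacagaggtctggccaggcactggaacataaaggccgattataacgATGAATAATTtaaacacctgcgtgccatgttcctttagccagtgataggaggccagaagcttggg
Plxna4, chr6:32203506-32203625, plus strand: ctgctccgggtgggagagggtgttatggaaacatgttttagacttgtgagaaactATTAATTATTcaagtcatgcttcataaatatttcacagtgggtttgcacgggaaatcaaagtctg
Sema5b at 51.3 kb, chr16:35592430-35592549, plus strand: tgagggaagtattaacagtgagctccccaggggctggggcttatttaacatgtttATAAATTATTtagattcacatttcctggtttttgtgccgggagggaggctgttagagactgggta
Sema5b at 73.3 kb, chr16:35614674-35614793, minus strand: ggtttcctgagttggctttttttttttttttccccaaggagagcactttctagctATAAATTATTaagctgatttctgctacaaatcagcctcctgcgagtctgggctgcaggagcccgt
Efna3, chr3:89327357-89327476, plus strand: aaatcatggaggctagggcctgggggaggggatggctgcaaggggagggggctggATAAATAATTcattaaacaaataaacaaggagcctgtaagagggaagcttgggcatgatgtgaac
Epha3 at 249 kb, chr16:63615762-63615881, plus strand: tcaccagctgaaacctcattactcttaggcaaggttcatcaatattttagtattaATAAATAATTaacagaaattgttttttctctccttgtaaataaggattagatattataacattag
Ephb4, chr5:137349887-137350006, plus strand: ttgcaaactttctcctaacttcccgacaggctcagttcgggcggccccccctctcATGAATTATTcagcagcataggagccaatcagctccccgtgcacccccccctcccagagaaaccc

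Sites with at most 1 mismatch in the central 200 bp are common, in 32.7% of all regions away from a start. Weaker member regions of Efna5, Epha7 and Sema6b without an exact match also have one. Of the other member regions among the 10 highest, those in Nrp2 and Epha3 have no exact match but a site that differs from the motif at 1 base, shown in capitals.
Nrp2, chr1:62803052-62803171, minus strand: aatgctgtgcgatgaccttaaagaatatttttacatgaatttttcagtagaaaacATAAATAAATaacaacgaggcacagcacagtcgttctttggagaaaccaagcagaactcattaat
Epha3 at 91.3 kb, chr16:63772776-63772895, plus strand: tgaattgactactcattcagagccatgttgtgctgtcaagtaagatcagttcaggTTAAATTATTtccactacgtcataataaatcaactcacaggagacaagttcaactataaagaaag

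The regions over gene starts look different in sequence. The 120 bases just before Ephb3, within its start region, are shown with each CG in capitals. They hold 7 CG dinucleotides and no POU motif.
Ephb3, chr16:21204635-21204754, plus strand: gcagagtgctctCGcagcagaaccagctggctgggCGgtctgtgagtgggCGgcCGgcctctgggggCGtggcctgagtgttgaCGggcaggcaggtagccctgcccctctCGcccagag

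Each value is a signal averaged over its region and not a number of reads. When multiplied by region length, 100% of the signals came out as whole multiples of 1 step per library, to within 0.05 steps. Values are given below for Pou4f1 replicate 1 and then 2, and for IgG in the order of the library named IgG and the library named negative control. The value above 0 seen most often in both IgG libraries was 160 steps, in 887 and 871 regions. At the median length of the member regions (1058 bp) this is worth a signal of 11.5 in the former and of 13.5 in the latter. Member regions held 0 to 2.89 and 0 to 3.91 such units in the IgG libraries, so that each control value rests on few such units, against 12.8 to 120 and 4.02 to 94.0 in Pou4f1 replicates 1 and 2. Read totals of the libraries are unknown here, since no source used gives them. Of 8 genes listed for RGCs, 8 had a region within 10 kb, Pou4f1, Pou4f2, Isl1 and Atoh7 among them, beside 34.9% of all coding genes. The paper already reports these named genes as bound in the same data, and it places Atoh7 in post-mitotic progenitors. The count is therefore no independent check of the tissue. Regions also lay near Lhx2, Pax6, Rax, Six3 and Six6, genes of retinal progenitors and the eye field. Of their 8 regions, 4 were higher in Pou4f1 than in IgG by limma, beside 64.8% of all regions. These counts do not tell in which cells the signal arose. None of the 11 markers listed for endothelium, lens, blood, muscle and liver had a region, and for pigment epithelium 2 of 3, Mitf and Pmel, had 1 region each. A region marks antibody signal on chromatin and does not measure expression.

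The first question was how often genes of these families carry a region. A region lay within 10 kb of 32 of the 53 genes (60.4%, 95% exact binomial interval 46.0 to 73.5), beside 34.9% of all coding genes. These intervals cover counting error only, and genes are not independent replicates. At least 1 base of a region lay within 1 kb of an annotated start for 27 of the 53 genes (50.9%, interval 36.8 to 64.9), beside 25.4% of all coding genes. Regions overlapped the body itself in 29 members (54.7%, beside 27.8% of coding genes). With regions at the start of another coding gene left out, 30 genes kept a region (56.6%, beside 29.4% of coding genes). At least 2 regions lay near 12 members (22.6%, beside 7.64% of coding genes). At least 3 lay near 4 members, Epha3, Efna5, Nrp2 and Sema5b (7.55%, beside 1.78% of coding genes). These 4 are long genes, of 115 to 321 kb.

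Members are long genes, with a median body of 36.9 kb against 17.4 kb for all coding genes, and a long body can catch more regions. Within bands of length, 9 of 17 members under 20 kb had a region (52.9%), beside 26.2% of coding genes of that length. From 20 to 50 kb the members' share was 5 of 14 (35.7%) beside 38.6%, so that in this band it was not above that of other genes. From 100 to 200 kb it was 9 of 11 (81.8%) beside 50.9%, and over 200 kb 9 of 11 (81.8%) beside 65.9%. The share with a region within 1 kb of a start also rose with length. Under 20 kb it was 6 of 17 members beside 17.8% of coding genes, and from 20 to 50 kb 5 of 14 beside 29.8%. From 100 to 200 kb it was 9 of 11 beside 38.2%, and over 200 kb 7 of 11 beside 44.5%. No test was made of these shares.

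**Figure D1:**
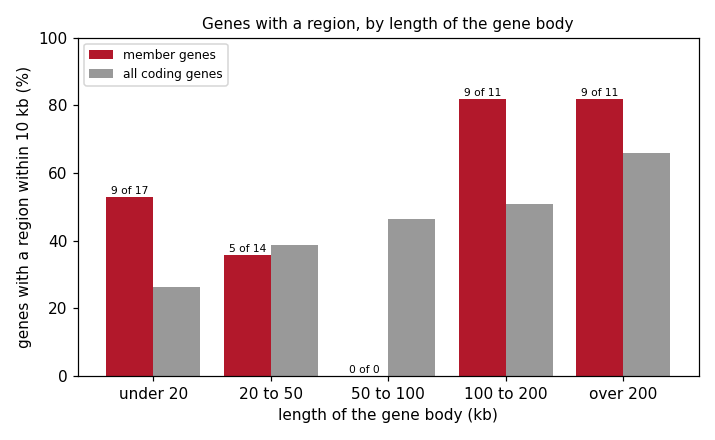
Share of genes with a region within 10 kb (y axis, percent) by length of the gene body (x axis, kb), for the 53 member genes (red, with counts above the bars) and all 21951 coding genes (grey). Member bars stand above grey ones except from 20 to 50 kb, where 5 of 14 members had a region, and no member is 50 to 100 kb long.

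By family, a region was found for 6 of 9 EphA receptors, 4 of 5 EphB receptors, 3 of 5 ephrin-A genes and 1 of 3 ephrin-B genes. It was found for 12 of 20 semaphorins, 4 of 9 plexins and both neuropilins, beside 34.9% of all coding genes. The families also differ in median body length, from 9.41 kb for ephrin-A genes to 148 kb for EphA receptors. Differences between families were not tested. Not every region near a member is its own. The region counted for Epha1 lies over the start of Zyx, that of Sema3b over the start of Ifrd2, and 1 of the 2 regions each of Sema4b and Sema4c over the starts of Cib1 and Gdpgp1 and of Ankrd39. Efna4 is counted only through the 2 regions of its neighbour Efna3. The start regions of Efnb2, Nrp1, Sema5a, Sema4c, Epha4 and Epha6 are also within 1 kb of the start of a gene that is not protein-coding. So is the second region of Epha7. The 21 members without a region were Epha2, Epha8, Epha10, Ephb2, Efna1, Efna2, Efnb1, Efnb3, Plxna3, Plxnb1, Plxnb2, Plxnb3, Plxnd1, Sema3a, Sema3c, Sema3d, Sema3g, Sema4a, Sema4f, Sema4g and Sema7a. Among them are genes with known roles in the retinal projection, such as Ephb2, whose nearest region was 50.3 kb away. Efna2, which acts in mapping of the axons, had its nearest region at 11.2 kb, just beyond the limit, and Sema3a, a secreted repellent, at 19.8 kb. The farthest was Sema3d, at 1033 kb. A gene without a region is 1 for which none was deposited, which does not show that Pou4f1 was absent.

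Pou4f1 was then compared with IgG. In all 48 member regions each Pou4f1 library was above each IgG library, which held for 96.5% of all regions. The authors called the regions from Pou4f1 signal, so part of any excess in them comes from that choice. With limma on log2(signal + 1), fitted on all 8038 regions with Benjamini-Hochberg adjustment, 35 of the 48 were higher in Pou4f1 at an adjusted p under 0.05 and 0 were lower (limma called 64.8% of all regions higher and 0.224% lower). At 72.9% the members' share was near that of all regions. The median log2 difference over the members was 5.35, beside 5.22 over all regions, on a scale that understates the change of low signal. The calls rest on few libraries. Without Pou4f1 replicate 1 or replicate 2, 11 and 13 member regions passed (29.4% and 30.9% of all regions did), and 11 of the 35 passed in both cases, 8 of which are at 0 in each IgG library, where no spread is left within a group. The 24 others had adjusted p of 0.0680 to 0.334 without replicate 1 and of 0.0389 to 0.310 without replicate 2. Without the library named IgG 47 member regions passed and without that named negative control 48, beside 94.4% and 95.9% of all regions. The 13 that missed the threshold had adjusted p of 0.0511 to 0.149, and 10 of them are at 0 in just 1 IgG library, which widens the spread.

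**Figure D2:**
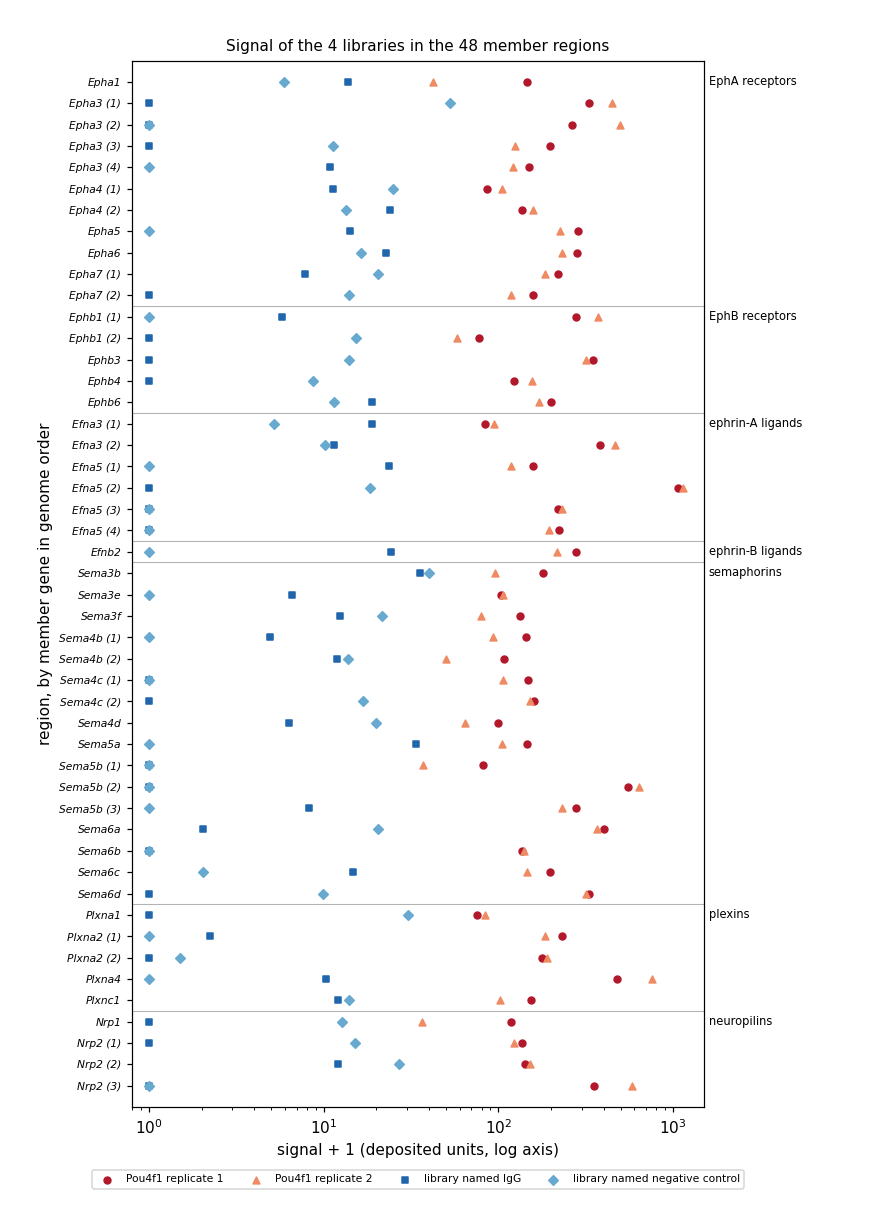
Signal + 1 (x axis, log scale, deposited units) of Pou4f1 replicates 1 and 2 (red and orange) and of the IgG libraries (dark and light blue) in the 48 member regions (y axis), grouped by family and numbered in genome order where a gene has several. Points at 1 are regions listed at 0. In all 48 rows both Pou4f1 points lie to the right of both IgG points, and the Efna5 region 2 stands highest, at 1061 and 1131.

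Among the ephrin-A ligands, Efna5 carried the strongest signal of all members. Efna5 is a minus-strand gene of chromosome 17 (62604184 to 62881317) and is a repellent for temporal RGC axons in the midbrain. Its region in intron 1, from 62844334 to 62845146 and 36.6 kb inside the gene, reached 1061 and 1131, beside 0 and 17.5 for IgG. This placed it at rank 18 of 8038 regions by mean Pou4f1 signal (log2 difference 7.99, standard error 1.70, limma, adjusted p = 0.0320). It holds the POU motif 65.5 bp from its midpoint. A further region of intron 1, from 62870753 to 62871470, had 218 and 230 and stood at 0 in each IgG library (adjusted p = 0.00222). Upstream of the gene, the region from 62882795 to 62883735 begins 1478 bp before the start and had 220 and 193, also with 0 in each IgG library (adjusted p = 0.00222). In intron 2, 235 kb from the start, the region from 62646195 to 62647276 had 157 and 116 beside 22.5 and 0 (adjusted p = 0.0868). No region covers the start of Efna5, so its signal lies at 4 places away from it.

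Efna3, a minus-strand gene of chromosome 3 (89313899 to 89322965), had its stronger region upstream. From 89327029 to 89328195, 4064 bp before the gene and between Efna3 and Efna4, the signal was 381 and 464 with the Pou4f1 antibody beside 10.5 and 9.14 for IgG. The log2 difference was 5.29 (standard error 0.40, limma, adjusted p = 0.00331), and the call held without either Pou4f1 replicate (0.0181 and 0.0193). This region holds the POU motif printed above. At the start of Efna3, the region from 89321737 to 89323427 had 82.3 and 93.4 beside 17.8 and 4.21 (adjusted p = 0.0452). Of the 6 ephrin-A regions, 5 were past the threshold, beside 64.8% of all regions. The call at the start of Efna3 was lost when either Pou4f1 replicate was left out. The call at the strongest Efna5 region was lost without replicate 1 (0.303) or replicate 2 (0.291).

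The only ephrin-B gene with a region was Efnb2, the ligand that turns back uncrossed axons at the chiasm. Over its start on chromosome 8, from 8660603 to 8662114, the signal was 276 and 217 beside 23.3 and 0 (log2 difference 5.64, standard error 1.86). The adjusted p of 0.0668 missed the threshold, with each Pou4f1 value above each IgG value.

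Among the EphA receptors, Epha3 had 4 regions and 2 of them were far inside the gene, which lies on the minus strand of chromosome 16 between 63543534 and 63864175. The region from 63772516 to 63773223, 91.3 kb from the start, covers 314 bp of coding sequence. It had a signal of 263 and 492 with the Pou4f1 antibody and 0 in each IgG library (limma, adjusted p = 0.00229). The region in intron 5, from 63615365 to 63615897, had 329 and 446 beside 0 and 52.04, the highest control value of any member region, and its adjusted p was 0.0943. At the start of Epha3, from 63863879 to 63864499, the signal was lower, with 148 and 121 beside 9.82 and 0 (adjusted p = 0.0460). The region in intron 1, from 63857014 to 63857707, had 195 and 124 beside 0 and 10.2 (adjusted p = 0.0455). Thus in Epha3 the regions far from the start exceeded the start region in both replicates.

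Epha4, Epha5, Epha6 and Epha7, which RGCs use to read ephrin gradients, each had a region over the start. Epha5, from 84416883 to 84417782 on chromosome 5, had a signal of 284 and 225 in Pou4f1 beside 13.1 and 0 for IgG (limma, adjusted p = 0.0439). Epha6, from 60605142 to 60606524 on chromosome 16, had 282 and 230 beside 21.8 and 15.4 (log2 difference 3.72, standard error 0.43, adjusted p = 0.00892). Epha7 had 2 adjacent regions on chromosome 4. The first, from 28812647 to 28814440, had 219 and 184 beside 6.80 and 19.6 (adjusted p = 0.0202), and the next, from 28814939 to 28815996, had 157 and 117 beside 0 and 13.02 (adjusted p = 0.0571). At the start of Epha4, from 77514746 to 77515888 on chromosome 1, the signal was 135 and 156 beside 23.01 and 12.4 (adjusted p = 0.0197). A region in intron 3 of Epha4 reached 85.3 and 104 beside 10.3 and 23.8 (adjusted p = 0.0387). Epha5 and Epha6 differed by less than their replicates did, and both were above Epha4 in each replicate. In all 8 of 11 EphA regions passed, beside 64.8% of all regions. Only the call covering coding sequence of Epha3 held when either Pou4f1 replicate was left out.

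Among the EphB receptors, Ephb1 showed a weak start and a strong intron. Ephb1 is the receptor that marks RGCs with uncrossed axons, and it is a minus-strand gene of chromosome 9 (101922128 to 102354693). The region in intron 2, from 102211156 to 102212627 and 143 kb inside the gene, had a signal of 278 and 369 in Pou4f1 beside 4.77 and 0 for IgG (log2 difference 7.06, standard error 1.08, limma, adjusted p = 0.0162). The start region, from 102353432 to 102355020, had 76.0 and 57.2 beside 0 and 14.3 (adjusted p = 0.0900). The intron region exceeded the start region in both replicates. Neither region holds the POU motif.

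Ephb3, which with Ephb2 acts in dorsal-ventral mapping, had the opposite layout, with its signal at the start. The region from 21204334 to 21205398 on chromosome 16 had 345 and 315 in Pou4f1 beside 0 and 12.9 for IgG (limma, adjusted p = 0.0391). Ephb4, a receptor best known from blood vessels, had 122 and 155 beside 0 and 7.71 over its start, from 137349592 to 137350513 on chromosome 5 (adjusted p = 0.0375). Among the 31 regions with a midpoint within 1 kb of a start, this is the 1 that holds the POU motif, 106 bp from its midpoint. Ephb6, a member without kinase activity, had 198 and 171 beside 17.8 and 10.4 (adjusted p = 0.0115). Of the 5 EphB regions 4 passed the threshold, beside 64.8% of all regions. These calls were lost when either Pou4f1 replicate was left out.

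Semaphorins gave 16 regions, of which 12 passed the threshold, beside 64.8% of all regions. Among the 12 are regions over the starts of neighbours, Cib1 and Gdpgp1 near Sema4b and Ankrd39 near Sema4c. Only the calls over Ankrd39, at Sema6b, and at the start and the strongest region of Sema5b held when either Pou4f1 replicate was left out. Sema5b, a transmembrane semaphorin that keeps inner retinal neurites in their layer, held the strongest of the 16 regions. Sema5b is a plus-strand gene of chromosome 16 (35541145 to 35664732). In its intron 1, from 35592157 to 35593120, the signal was 549 and 639 with the Pou4f1 antibody and 0 in each IgG library (limma, adjusted p = 0.00222), at rank 186 of 8038. A further region of the same intron, from 35614167 to 35615214, had 276 and 229 beside 7.20 and 0 (adjusted p = 0.0271). Both hold the POU motif, 149 bp and 43 bp from their midpoints. The start region of Sema5b, from 35540219 to 35542115, had the lowest mean signal of all 48 member regions, at 80.7 and 36.1, and stood at 0 for IgG in each library (adjusted p = 0.00649). The related Sema5a had 1 region, over its start on chromosome 15 from 32244773 to 32245508, with 145 and 104 beside 32.6 and 0 (adjusted p = 0.122).

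The class of Sema6 genes was marked at the start in all 4 members. Sema6a, which with Plxna4 and Plxna2 patterns the inner plexiform layer, had 400 and 367 beside 1.04 and 19.4 on chromosome 18, from 47368636 to 47369367 (log2 difference 5.89, standard error 1.36, limma, adjusted p = 0.0370). Sema6d, a cue for crossing axons at the chiasm, had 330 and 318 beside 0 and 8.86 on chromosome 2, from 124609573 to 124611177 (adjusted p = 0.0292). These values were above those of Sema6c, with 196 and 144 beside 13.8 and 1.03 (adjusted p = 0.0401), and of Sema6b, with 135 and 139 and 0 in each IgG library (adjusted p = 0.00222). The order of the Sema6 genes was read from these same values and was not tested. The calls at Sema6a, Sema6c and Sema6d were lost when either Pou4f1 replicate was left out, and that at Sema6b held.

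Among the secreted semaphorins, Sema3e, a ligand of Plxnd1, had 102 and 105 beside 5.62 and 0 over its start, from 14025186 to 14026270 on chromosome 5 (limma, adjusted p = 0.0321). Sema3f had 133 and 78.9 beside 11.3 and 20.5 at a start (adjusted p = 0.0323). Sema3a, Sema3c, Sema3d and Sema3g had none within 10 kb, and the region near Sema3b is that of Ifrd2. In the Sema4 genes, start regions of Sema4b and Sema4c had 142 and 92.1 beside 3.94 and 0 (adjusted p = 0.0224 for Sema4b) and 159 and 150 beside 0 and 15.8 (adjusted p = 0.0615 for Sema4c). The region of Sema4d reaches over the start of the gene, though its midpoint is 1011 bp from a start. The signal there was 98.7 and 63.5 beside 5.32 and 19.01 (limma, adjusted p = 0.0511).

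Among the receptors of semaphorins, Plxna4 had a single region and it was the second strongest of all members by mean Pou4f1 signal. In replicate 1 alone, the strongest Sema5b region, at 549, was above that of Plxna4, at 477. Plxna4 is a minus-strand gene of chromosome 6 (32144268 to 32588192). The region from 32203282 to 32203929, in intron 14, 385 kb from the start of the transcript with the longest coding sequence and 21593.5 bp from the nearest annotated start, had a signal of 477 and 756 in Pou4f1 beside 9.29 and 0 for IgG (log2 difference 7.55, standard error 1.40, limma, adjusted p = 0.0246), at rank 162. It holds the POU motif 40 bp from its midpoint. The call was lost without replicate 1 (0.266) or replicate 2 (0.273). Plxna2, on chromosome 1, had a region over its start, from 194619453 to 194620256, with 231 and 184 beside 1.23 and 0 (adjusted p = 0.00433). A region in its intron 26, from 194802111 to 194803006, had 176 and 188 beside 0 and 0.496 (adjusted p = 0.00230). Plxna1, the receptor that Sema6d and Nrcam engage at the chiasm, had 73.9 and 83.2 beside 0 and 29.6 (adjusted p = 0.149), the weakest contrast by adjusted p of all member regions. Plxnc1, the receptor of Sema7a, had 153 and 101 beside 11.1 and 13.0 at its start, covering 936 bp of coding sequence (adjusted p = 0.0130). Of the 5 plexin regions 4 passed the threshold, beside 64.8% of all regions. Only the calls in intron 26 of Plxna2 and in Plxnc1 held when either Pou4f1 replicate was left out. The call at the start of Plxna2 was lost in both cases.

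The neuropilins differed in layout. Nrp2, a plus-strand gene of chromosome 1 (62703285 to 62818695), had its strongest region in intron 15, 99.4 kb from the start. From 62802696 to 62803520 the signal was 352 and 577 with the Pou4f1 antibody and 0 in each IgG library (limma, adjusted p = 0.00222). The start region of Nrp2, from 62703035 to 62704016, had 135 and 121 beside 0 and 14.03 (adjusted p = 0.0615), and the region 3.03 kb into intron 1 had 141 and 151 beside 11.1 and 25.8 (adjusted p = 0.0271). Nrp1, which guides crossing axons in the chiasm, had 1 region, over its start on chromosome 8 from 128357705 to 128358921, with 117 and 35.7 beside 0 and 11.7 (adjusted p = 0.0889). Its replicates differed more than those of most members, with replicate 2 at 0.305 of replicate 1. Of the 4 neuropilin regions 2 passed, beside 64.8% of all regions. The call in intron 15 of Nrp2 held when either Pou4f1 replicate was left out, and that in intron 1 was lost in both cases.

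**Figure D3:**
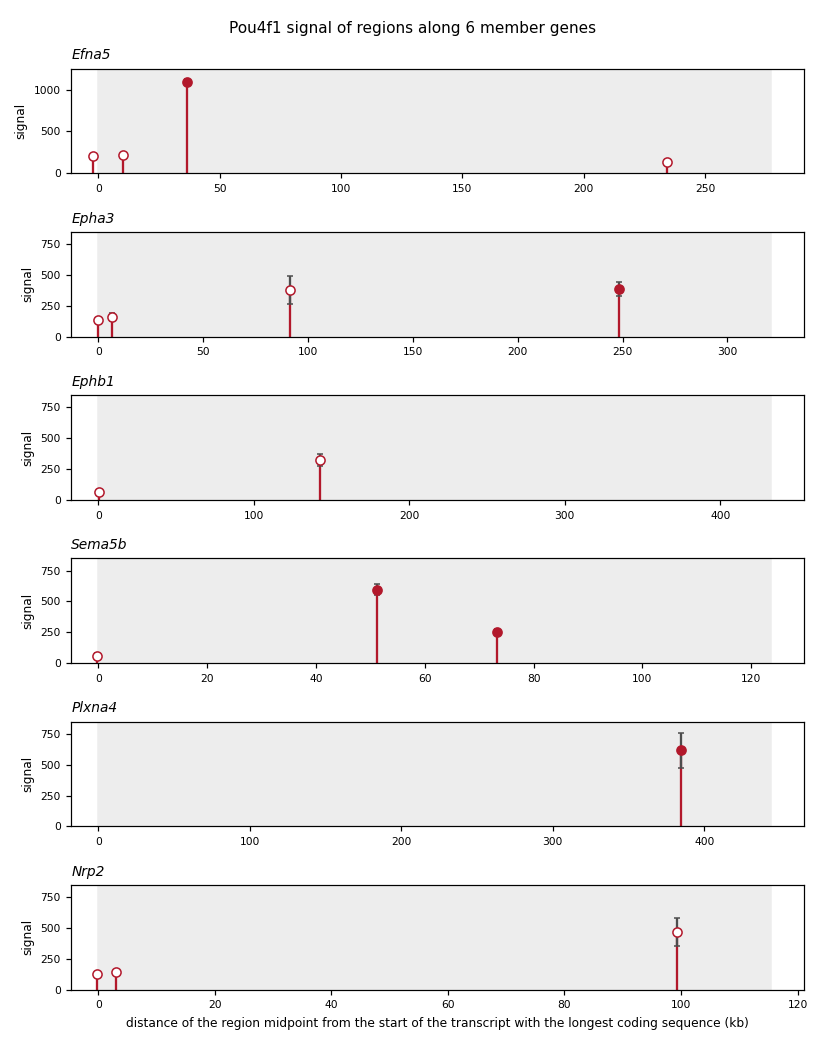
Mean Pou4f1 signal (y axis, deposited units, bars from the lower to the higher of the 2 replicates) against distance of the region midpoint from the gene start (x axis, kb) in 6 genes chosen for a strong region away from the start (Efna5, Epha3, Ephb1, Sema5b, Plxna4 and Nrp2), with the gene body in grey and regions that hold the POU motif filled. In each gene the highest region lies away from the start, from 36.6 kb in Efna5 to 385 kb in Plxna4.

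Among the members, 7 had both a region at their own start and a region away from any start. In Efna3, Epha3, Ephb1, Nrp2 and Sema5b the strongest region away from a start exceeded that at the start in both replicates. Taking the strongest favours that side where a gene has several such regions, as Epha3, Nrp2 and Sema5b do. In these genes each region away from a start exceeded the start region in both replicates. How often this holds among all coding genes was not computed. The start region was the higher in both replicates in Epha4, and the replicates differed in Plxna2.

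Across the members, location went with the level of signal. The midpoint of 31 of the 48 regions lay within 1 kb of an annotated start (64.6%, beside 64.0% of all regions), 27 of them at a start of the member itself. Their median signal was 147 and 121 in Pou4f1 replicates 1 and 2, and that of the 17 regions away from a start was 263 and 230. Among the 17 is the region of Sema4d, which reaches over the gene's start and counts as away only by its midpoint. Over all regions the medians were 183 and 130 near a start, and 188 and 231 away from one. Away from a start, 14 of the 17 member regions passed the threshold and near a start 21 of 31, beside 69.6% and 62.1% of all regions. GC content was 63.5% near a start and 48.5% away, in the median, as over all regions (62.7% and 49.0%). The regions were chosen by Pou4f1 signal, and no test was made of these differences.

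The POU motif followed the same split. It was in 6 of the 17 member regions away from a start (35.3%, 95% exact binomial interval 14.2 to 61.7, beside 26.1% of all such regions) and in 1 of 31 near a start (3.23%, interval 0.0816 to 16.7, beside 2.70%). Over all 48 regions it was in 7 (14.6%, interval 6.07 to 27.8, beside 11.1% of all regions). In the central 200 bp it was in 3 of 48 (6.25%, interval 1.31 to 17.2), beside 4.38% of all regions, so the members' share was near that of the whole set. The 6 regions with the motif had a mean Pou4f1 signal from 253 to 1096, with a median of 509. The 11 away from a start without it had 81.1 to 464, with a median of 182. The lowest of these 11 is the Sema4d region, which reaches over the start of its gene. Over all regions away from a start the medians were 268 with and 194 without the motif. The octamer ATGCAAAT, on either strand, was in 1 of the 48 regions, that of Sema3f, beside 3.64% of all regions.

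The Pou4f1 replicates also differed by location. Replicate 2 was above replicate 1 in 12 of the 17 member regions away from a start and in 6 of 31 near one, beside 62.6% and 16.6% of all regions. In the median, replicate 2 stood at 1.07 of replicate 1 away from a start and at 0.797 near one. The ratio reached 1.87 in the coding region of Epha3 and was lowest, at 0.284, in the region at the start of Zyx near Epha1. With 1 library per replicate, these differences have no test.

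**Figure D4:**
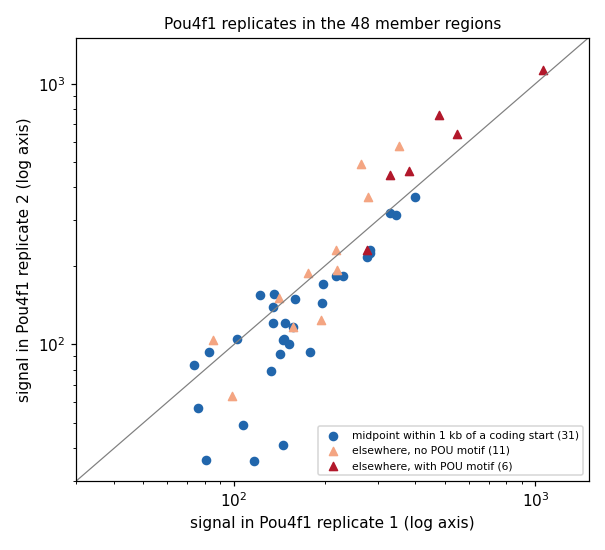
Signal in Pou4f1 replicate 2 (y axis) against replicate 1 (x axis), both on log scales, for the 48 member regions, with the line of equality. Regions with a midpoint within 1 kb of an annotated start (31, blue) lie mostly below the line. Those elsewhere (6 with the POU motif in red, 11 without in orange) lie mostly above it, 12 of 17 having more signal in replicate 2.

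Genes that act with these receptors, as co-receptors, proteases, phosphatases or downstream effectors, were counted as a list of 48 signalling partners. A region lay within 10 kb of 33 of them (34.9% of all coding genes had one). The partners were not split by gene length, so their share was not set beside genes of like length. Of their 47 regions, 31 were higher in Pou4f1 by limma (64.8% of all regions were) and 0 lower. The median log2 difference was 4.82, beside 5.22 over all regions. Fyn, a kinase recruited by ephrin-A and Eph signalling, Tiam1 and Vav3, exchange factors for Rac, Farp1, which binds A-type plexins, the GTPase Rhoa, and the cofilin kinases Limk1 and Limk2 each had 2 regions, all past the threshold. Of the 2 regions each of Grb2, an adaptor protein, and Dpysl4, 1 passed in Grb2 and 0 in Dpysl4. Ptpro, a phosphatase of Eph receptors, passed in 3 of its 4 regions, and Crmp1, which relays Sema3a signals, in 2 of 3. Of the 22 partners with 1 region, 11 passed, among them Chn1, Rasa1 and Adam10, and 11 did not (Vav2, Abl1, Src, Cdk5, Mical3, Pak1, Gipc1, Arhgef12, Nck1, Crk and Nrcam). The 15 partners without a region were Nck2, Ngef, Farp2, Arhgef11, Cdc42, Dpysl5, Rac1, Met, Fes, Mical1, Rnd1, Pak2, Pak3, Kalrn and L1cam.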

How the data were processed

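CUT&Tag libraries were made by the authors from pooled E16.5 wild-type mouse retinas with anti-Pou4f1 (n = 2), IgG (n = 2) and anti-H3K9AC (n = 1, not analysed here). Reads were trimmed, masked for low complexity and mapped to mm10 with Bowtie2 2.4.5, named in the submitters' processing notes, and SEACR (relaxed mode) defined the regions. The deposited table holds the signal of 4 libraries in 8038 regions, 8028 of them on chromosomes and searched for motifs. How it was averaged and scaled, and whether replicates were pooled for calling, no source used here gives. The column named negative control was taken as IgG, the only negative control the study names, and neither IgG column carries a replicate number. The study calls the libraries of each antibody independent replicates, but the labels do not tie them to separate pools of retinas, so p-values measure only the spread between these libraries, which may be technical.

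Pou4f1 was compared with IgG on log2(signal + 1) over all regions with limma 3.58.1 (R 4.3.3), without scaling or covariates. An exact permutation test of 2 against 2 libraries cannot give a two-sided p below 0.333. Genes came from GENCODE M21 and sequence from RefSeq GRCm38.p6. Starts in the table count from 0 and are printed counted from 1. The limma fit and the motif search were tested on simulated data. Shares have exact binomial (Clopper-Pearson) intervals at 95%. Python 3.11.15 with pandas 2.3.3, numpy 2.4.6, scipy 1.17.1, pysam 0.24.0 and matplotlib 3.10.9 was used.

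The members and lists were chosen with earlier results of these data known. One listed marker gene is not reported here. Values are given for regions with the POU motif, the 10 with the highest mean Pou4f1 signal and start regions of 26 genes known in retinal patterning, and other members were named to account for all. Alternatives were pseudocounts, a low-signal filter, the scaling of IgG, each library left out, a trend of spread, other windows and motif searches.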

Additional observations from a re-analysis of the deposited data

How the results depend on the processing

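No paired analysis was possible because the columns of the IgG libraries carry no replicate number. The count of member regions higher in Pou4f1, 35 of 48, was 18 with a pseudocount of 0.1 and 48 with 10, 15 and 11 with IgG taken as 2 and 4 times shallower, 8 with the column totals as library sizes, 32 with a trend of spread on level and 35 with the low-signal filter. Over all regions the count of 5205 became 3492 with a pseudocount of 0.1, 2949 and 2152 with IgG 2 and 4 times shallower, and 1821 with the column totals. With each library left out in turn the count over members ranged from 11 to 48. Each of these fits leaves 1 group with a single library, which is assumed to vary like the other group. No member region was called lower under any of these settings. The column totals moved the median log2 difference of all regions from 5.22 to 2.74, and 12 member differences fell below 0: Efna3 start -0.70, Epha1 -0.75, Epha4 -1.45 in intron 3 and -0.94 at the start, Epha6 -0.25, Ephb6 -0.29, Nrp2 intron 1 -0.93, Plxnc1 -0.67, Sema3b -2.21, Sema3f -1.28, Sema4b at Cib1 -1.41 and Sema4d -1.06. That setting takes signal in regions chosen for Pou4f1 as depth. With IgG 4 times shallower, Sema3b was at -0.18. The 8 regions at 0 in both IgG libraries cannot lose their difference to a scaling of IgG.

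The share of members with a region, 60.4%, was 77.4% within 50 kb (53.1% of coding genes) and 32.1% for regions at or above the median Pou4f1 signal (17.5%). It was 54.7% within the gene body alone (27.8%) and 47.2% for regions past the limma threshold (23.3%). The share with the POU motif was 14.6% in the central 500 bp (8.56% of all regions) and 18.8% with 1 mismatch allowed in the central 200 bp (13.4%), a search added once the data had been seen, as was leaving out regions at the start of another gene. The share at a start of the member, 56.3%, ranged from 52.1% to 62.5% over other distances. The ratio of replicate 2 to 1, 0.868 in the median, was 1.04 after division by each library's median.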
